A study of Homo sapiens with 4 samples.

Results

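The TRIM genes encode tripartite motif proteins, most of which are ubiquitin ligases. They were followed in RNA from 2 libraries of RKO, an established human colon carcinoma line. Members were all rows of the 2 expression tables whose symbol was TRIM followed directly by a digit, and 47 of the 13092 listed genes met this rule. The first library came from RKO cells overexpressing HADH-S, which the series title describes as a nuclear isoform of hydroxyacyl-CoA dehydrogenase, and the second from control RKO cells labelled wild type. How overexpression was achieved, and whether the cells were a clone or a pool, is not given in the sources used here. With 1 library per condition, no difference has a replicate check, no p-value is given, and the condition and the culture or library it came from cannot be told apart.

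A TRIM protein carries a RING domain that transfers ubiquitin, 1 or 2 B-box zinc fingers and a coiled coil through which it pairs, followed by a C-terminal region that picks the target. Many members act in innate immunity, where they attach ubiquitin to sensors of viral RNA, bind viral capsids or restrain the signal, and a subset is transcribed more strongly after interferon. Type I interferon acts through the factor ISGF3, which binds the interferon-stimulated response element in promoters. Other members regulate chromatin, microtubules, protein turnover at the endoplasmic reticulum and muscle.

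The reads recovered from the RPKM values summed to 6963608 over the 12612 genes listed for HADH-S cells. For control cells they summed to 6773421 over 12501 listed genes. Reads outside the listed genes are not in these sums. HADH was at 54.4 RPKM (reads per kilobase of transcript, scaled to library size) in the library labelled HADH-S, against 26.5 RPKM in control cells, a ratio of 2.05 with a 95% counting interval of 1.79 to 2.35. All intervals below are of this kind. They were taken from the reads behind each value and cover counting error only. Of the 5 epithelial markers, KRT18 (93.8 RPKM in HADH-S cells, against 91.7 RPKM in control cells), EPCAM, CDX2 and KRT8 were listed and CDH1 was not. Of the leukocyte markers, LCP1 was at 222 RPKM in HADH-S cells, against 249 RPKM in control cells, while the defining markers PTPRC, CD3E and CD14 were listed in neither table. The 4 fibroblast markers summed to 2 reads in HADH-S cells, against 0 reads in control cells.

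Of the 47 members, 42 were listed in both tables, 3 in that of HADH-S cells alone and 2 in that of control cells alone. The mean over both libraries reached 1 RPKM for 35, and 12 were below it. RefSeq holds 77 protein-coding genes with such symbols, and the 31 that neither table listed were not evaluated. Among them were TRIM34, TRIM6, the muscle genes TRIM55 and TRIM63, and TRIM43, TRIM49, TRIM51 and TRIM64 with their lettered copies. The members were separated by a list of 10 genes described as interferon-induced, which was written from general knowledge and not taken from an induction screen, so every count and median of that group rests on it. Of these, 9 were listed: TRIM5, TRIM14, TRIM21, TRIM22, TRIM25, TRIM26, TRIM38, TRIM56 and TRIM69. The remaining 38 are called the other members.

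The response element is shown first because it is the sequence that ISGF3 binds. Promoter windows of 300 bases, from 250 before to 50 after the RefSeq start of transcription (GRCh38.p14), were found for 35 of the 47 members. They were searched for GAAANNGAAA and its reverse complement TTTCNNTTTC, which are the 2 strands of the same element. It occurred in 5 of the 8 interferon-induced members with a window (TRIM5, TRIM14, TRIM21, TRIM26 and TRIM69) and in 3 of the 27 other members with one (TRIM2, TRIM16 and TRIM44). For comparison, 3.57% of all 35116 windows held it, and 3.85% of the 8424 genes with a window and a mean of at least 1 RPKM. A match is a description of the letters. The start used for TRIM16 lies within its gene bounds of 15627966 to 15684311, and so does its site. Each line gives 30 bases on the strand of the gene, 5′ to 3′, with the matching bases in capitals.
TRIM21 (chr11:4393663-4393692, minus strand, 2 overlapping matches, the first starting at base 18 of the transcript): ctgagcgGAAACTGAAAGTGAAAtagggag
TRIM14 (chr9:98119229-98119258, minus strand, 26 bases before the start): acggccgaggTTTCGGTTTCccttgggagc
TRIM5 (chr11:5685082-5685111, minus strand, 27 bases before the start): atagtttatcTTTCACTTTCctgccctgag
TRIM26 (chr6:30213578-30213607, minus strand, 2 overlapping matches, the first 194 bases before the start): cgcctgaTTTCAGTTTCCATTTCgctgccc
TRIM69 (chr15:44736456-44736485, plus strand, 62 bases before the start): ctaatgagggTTTCTCTTTCtcttaagcaa
TRIM44 (chr11:35662730-35662759, plus strand, 35 bases before the start): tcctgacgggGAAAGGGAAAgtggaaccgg
TRIM2 (chr4:153151936-153151965, plus strand, 217 bases before the start of 1 of its 6 windows): aataaatagaGAAAAGGAAAtaagccgaag
TRIM16 (chr17:15683012-15683041, minus strand, 80 bases before the start): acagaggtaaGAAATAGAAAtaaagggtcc

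Of the interferon-induced members, TRIM21, TRIM25, TRIM14 and the low TRIM22 had ratios of HADH-S over control whose counting interval lay above 1, and the other 5 had intervals that included 1. Differences are given as RPKM ratios, and groups are described by the log2 of (RPKM + 1) in HADH-S cells over that in control cells, here called the log2 value, which understates the change of low genes. A gene was called higher or lower at a log2 value of 0.58 (1.5-fold) or 1 (2-fold), which are rules of size. Of the 8 interferon-induced members with a mean of at least 1 RPKM, 1 was higher by 1.5-fold, while 1.47% of the 10331 genes at that level were. By the 2-fold rule 0 of the 8 were higher and 0 lower, beside backgrounds of 0.300% and 0.0484%. Counting intervals above 1 were found for 3 of the 8 and intervals below 1 for 0, while 13.8% and 11.6% of those 10331 genes had them, so such intervals were common between these libraries. The log2 value was positive for 7 of the 8, and for 6 when the libraries were rescaled to equal RPKM totals or equal 75th percentiles, which turned the sign of TRIM56. Among all genes 52.2% were positive. The median was 0.12 for the 8 members and 0.01 for all 10331 genes. In bulk RNA, a change in the number of cells that express a gene and a change per cell cannot be told apart.

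TRIM21 (Ro52), a cytosolic antibody receptor and ubiquitin ligase, lies on chromosome 11 from 4384897 to 4393702 in GRCh38.p14. It was at 16.2 RPKM in HADH-S cells, against 8.85 RPKM in control cells, from 218 reads and 116 reads. The ratio was 1.83, with an interval of 1.45 to 2.31, and the log2 value of 0.80 was the 55th highest of the 10331 genes. Among the members, TRIM21 stood 8th by level in HADH-S cells and 14th in control cells. Its window holds the doubled element printed above, just after the start of transcription.

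TRIM22, an antiviral ligase that interferon induces strongly in many cell types, lies on chromosome 11 from 5689790 to 5710863. It had the largest ratio of the 42 members with reads in both libraries, at 1.44 RPKM in HADH-S cells, against 0.307 RPKM in control cells. These values rest on 29 reads in HADH-S cells, against 6 in control cells, and the ratio of 4.70 has an interval of 1.92 to 13.9. Because its mean was 0.874 RPKM, TRIM22 is not among the 8 members counted above. Its log2 value was 0.90, and over all 13092 listed genes 1.46% reached the 1.5-fold rule.

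TRIM25, the ligase that activates the RNA sensor RIG-I, lies on chromosome 17 from 56887909 to 56914049. It was at 21.0 RPKM in HADH-S cells, against 14.8 RPKM in control cells, from 839 reads and 576 reads. The ratio was 1.42 (interval 1.27 to 1.58) and the log2 value of 0.48, short of the 1.5-fold rule, was the 299th highest of the 10331 genes. Neither strand of the motif was found in its window.

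TRIM14, a member without a RING domain that joins the mitochondrial adaptor MAVS, lies on chromosome 9 from 98035797 to 98119222. It was at 28.9 RPKM in HADH-S cells, against 23.4 RPKM in control cells, from 901 reads and 710 reads. The ratio was 1.23 (interval 1.12 to 1.36), the smallest of the 4 whose interval lay above 1. The gene overlaps NANS, which had 775 reads in HADH-S cells, against 850 in control cells. The counting is not stated to use strand, so reads from the shared bases cannot be assigned with certainty.

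The other 5 listed members of the interferon-induced list had intervals that included 1. TRIM38, which restrains signalling from Toll-like receptors, was at 5.95 RPKM in HADH-S cells, against 5.36 RPKM in control cells (ratio 1.11, interval 0.957 to 1.29). TRIM26, encoded in the MHC region, was at 22.0 RPKM in HADH-S cells, against 20.6 RPKM in control cells (ratio 1.07, interval 0.945 to 1.21). TRIM56, which promotes signalling from cytosolic nucleic acids, was at 10.7 RPKM in HADH-S cells, against 10.6 RPKM in control cells (ratio 1.01, interval 0.914 to 1.12). For TRIM26 and TRIM56, whose bounds rest on 491 or more reads per library, an increase beyond 1.21-fold and 1.12-fold lay outside counting error. TRIM69, which restricts vesicular stomatitis virus, had only 29 reads in HADH-S cells, against 25 reads in control cells, and its interval ran from 0.638 to 2.01.

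TRIM5, which recognises retroviral capsids, was at 7.09 RPKM in HADH-S cells, against 7.42 RPKM in control cells, from 166 reads and 169 reads. The ratio was 0.955, with an interval of 0.767 to 1.19 that does not reach the ratios of TRIM21, TRIM22 or TRIM25. TRIM5 and TRIM22 are neighbours on chromosome 11, with 4715 bases between the gene bounds (5588635 to 5685074 for TRIM5). Their intervals did not overlap, so within this pair the ratio of 4.70 of TRIM22 stood beside 0.955 for TRIM5. TRIM5 also spans TRIM6 and TRIM34, which neither table listed.

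**Figure D1:**
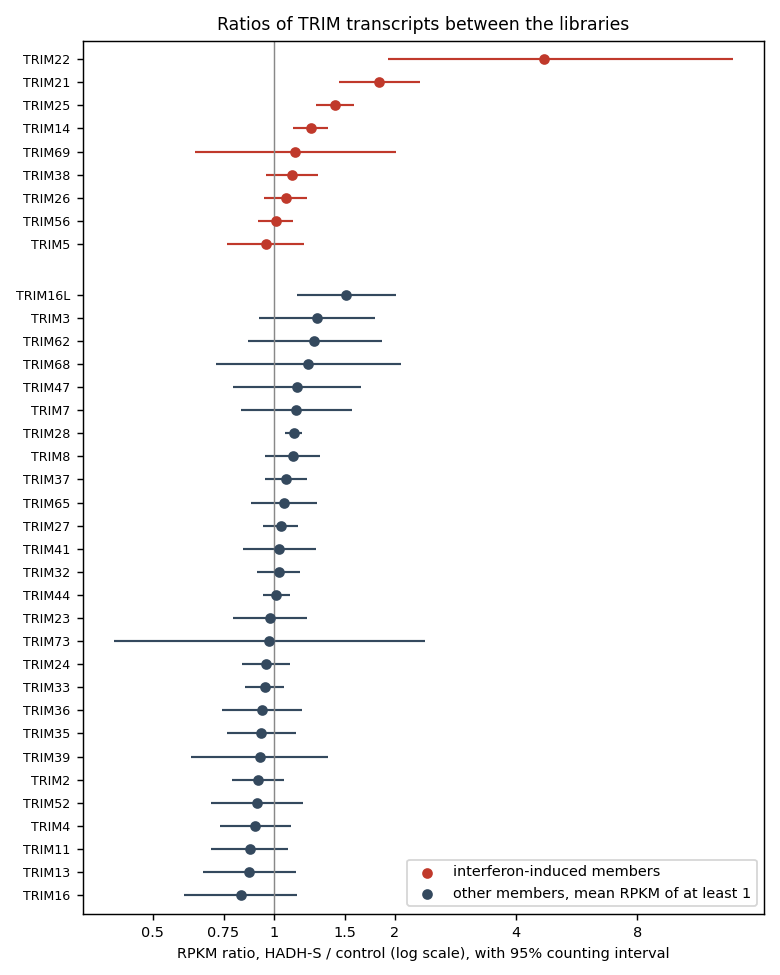
RPKM ratio of HADH-S over control for each TRIM member (horizontal axis, log scale) with its 95% counting interval. Red points are the 9 listed interferon-induced members and blue points the 27 other members with a mean of at least 1 RPKM. The red intervals of TRIM22, TRIM21, TRIM25 and TRIM14 and the blue intervals of TRIM16L and TRIM28 lie to the right of 1, and no interval shown lies to the left of it.

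Members that hold the element differed in ratio. Of the 5 with a match, TRIM21 had a ratio of 1.83 and TRIM14 one of 1.23, whereas TRIM5, TRIM26 and TRIM69 had 0.955, 1.07 and 1.13. The 3 other members with a match, TRIM44, TRIM2 and TRIM16, had 1.01, 0.913 and 0.827, each with an interval that included 1. Across all genes with a window and at least 1 RPKM, 22 of the 324 with a match were higher by 1.5-fold (6.79%), against 92 of the 8100 without one (1.14%). The medians of these groups were 0.02 with a match and 0.01 without. Genes lower by 1.5-fold were not counted in this way, genes without a window are in neither group, and a role of the element was not tested. Genes are not independent replicates, and no window for TRIM22 was used.

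Among the 27 other members with a mean of at least 1 RPKM, 0 were higher and 0 were lower by 1.5-fold, against backgrounds of 1.47% and 0.436%. Their log2 values ran from -0.21 to 0.53 with a median of 0.02, against 0.01 for all genes. The log2 value was positive for 14 and negative for 13, and positive for 13 with equal RPKM totals, which turned the sign of TRIM44. The interval lay above 1 for 2 members, TRIM16L and TRIM28, and below 1 for 0, against 13.8% and 11.6% of all genes at that level.

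The chromatin cofactors include the most abundant member. TRIM28 (KAP1), the corepressor that KRAB zinc finger proteins recruit to silence retroelements, was at 140 RPKM in HADH-S cells, against 125 RPKM in control cells, from 3288 reads and 2857 reads. The ratio was 1.12 (interval 1.06 to 1.18), and the log2 value of 0.16 ranked 2274 from the highest of the 10331 genes. The interval is narrow because this member had the most reads. TRIM33, a regulator of SMAD signalling, was at 11.2 RPKM in HADH-S cells, against 11.8 RPKM in control cells (ratio 0.948, interval 0.850 to 1.06). TRIM24, a histone reader and p53 ligase, was at 7.09 RPKM in HADH-S cells, against 7.41 RPKM in control cells (ratio 0.957, interval 0.834 to 1.10). The related TRIM66 was below 1 RPKM in both libraries, at 0.618 in HADH-S cells, against 0.594 in control cells.

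Of the 5 partners of TRIM28 in silencing, 4 had a negative log2 value, as did 4935 of the 10331 genes with a mean of at least 1 RPKM. Their interval lay below 1 for 2 and above 1 for 0, beside backgrounds of 11.6% and 13.8%, and 0 were lower by 1.5-fold. SETDB1, the histone H3 lysine methyltransferase that TRIM28 recruits, was at 3.92 RPKM in HADH-S cells, against 5.36 RPKM in control cells (ratio 0.731, interval 0.573 to 0.931). The heterochromatin protein genes CBX1 and CBX5 had ratios of 0.905 (interval 0.823 to 0.995) and 0.922 (interval 0.845 to 1.01). The list's median was -0.11.

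Members with an NHL domain, a propeller that binds RNA or protein, had intervals that included 1. TRIM32, mutated in a limb-girdle muscular dystrophy, was at 21.1 RPKM in HADH-S cells, against 20.5 RPKM in control cells (ratio 1.03, interval 0.909 to 1.16). TRIM2, which ubiquitinates neurofilament light chain, was at 7.21 RPKM in HADH-S cells, against 7.89 RPKM in control cells (ratio 0.913, interval 0.785 to 1.06). TRIM3 was at 4.15 RPKM in HADH-S cells, against 3.25 RPKM in control cells, and its ratio of 1.28 has an interval of 0.919 to 1.78.

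Of the members with C-terminal regions of their own, a membrane anchor or microtubule association, the 4 with a mean of at least 1 RPKM had intervals that included 1. TRIM37, a ligase that limits centriole assembly, was at 18.8 RPKM in HADH-S cells, against 17.5 RPKM in control cells (ratio 1.07, interval 0.953 to 1.21). TRIM23, which ends in an ARF GTPase domain, was at 6.88 RPKM in HADH-S cells, against 7.03 RPKM in control cells (ratio 0.978, interval 0.793 to 1.21). TRIM13, anchored in the endoplasmic reticulum, was at 9.65 RPKM in HADH-S cells, against 11.1 RPKM in control cells (ratio 0.870, interval 0.666 to 1.13). The microtubule-associated TRIM36 was at 5.39 RPKM in HADH-S cells, against 5.76 RPKM in control cells (ratio 0.936, interval 0.744 to 1.18).

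The pair TRIM16 and TRIM16L, near-identical copies on chromosome 17 without a RING domain, held the lowest and the highest ratio of the 27. TRIM16L (18697998 to 18736112), which RefSeq lists as a transcribed pseudogene, was at 9.35 RPKM in HADH-S cells, against 6.18 RPKM in control cells, from 129 reads and 83 reads. Its ratio was 1.51 (interval 1.14 to 2.02) and its log2 value 0.53. TRIM16 (15627966 to 15684311), a regulator of the removal of damaged lysosomes, was at 3.18 RPKM in HADH-S cells, against 3.84 RPKM in control cells, from 74 reads and 87 reads, with a ratio of 0.827 (interval 0.599 to 1.14). The division of reads between such copies is uncertain. Summed over both, 203 reads in HADH-S cells, against 170 in control cells, gave a ratio of 1.16 and an interval of 0.943 to 1.43. TRIM44, which has a ubiquitin-specific protease zinc finger in place of a RING, was at 14.6 RPKM in HADH-S cells, against 14.4 RPKM in control cells (ratio 1.01, interval 0.939 to 1.10).

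The remaining 14 members with at least 1 RPKM had ratios from 0.870 to 1.26 and intervals that all included 1. TRIM27, a ligase that activates the WASH complex on endosomes, was the most abundant of them at 39.4 RPKM in HADH-S cells, against 37.8 RPKM in control cells (ratio 1.04, interval 0.941 to 1.15). TRIM65, a ligase of the RNA sensor MDA5, was at 9.93 RPKM in HADH-S cells, against 9.38 RPKM in control cells (ratio 1.06, interval 0.876 to 1.28). TRIM4, a further ligase of RIG-I, was at 7.90 RPKM in HADH-S cells, against 8.77 RPKM in control cells (ratio 0.900, interval 0.733 to 1.10). These ligases act on the same kind of sensor as TRIM25, and both lay within counting error of the control. The lowest ratio in this group was that of TRIM11, at 8.53 RPKM in HADH-S cells, against 9.81 RPKM in control cells (ratio 0.870, interval 0.699 to 1.08). The highest were those of TRIM62 (1.26, interval 0.860 to 1.85) and TRIM68 (1.22, interval 0.719 to 2.07), both on fewer than 70 reads per library. The other ratios lay between these. TRIM8, TRIM47 and TRIM7 had 1.11, 1.14 and 1.14. TRIM41, TRIM73, TRIM35, TRIM39 and TRIM52 had 1.03, 0.973, 0.932, 0.921 and 0.909. TRIM73 had 12 reads in each library and has a near-identical copy, TRIM74. TRIM62 overlaps ZNF362 and AZIN2, TRIM13 overlaps KCNRG, TRIM32 lies within the bounds of ASTN2, and TRIM37, TRIM35 and TRIM66 share bases with PPM1E, PTK2B and RPL27A, so the source of a part of their reads is uncertain.

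**Figure D2:**
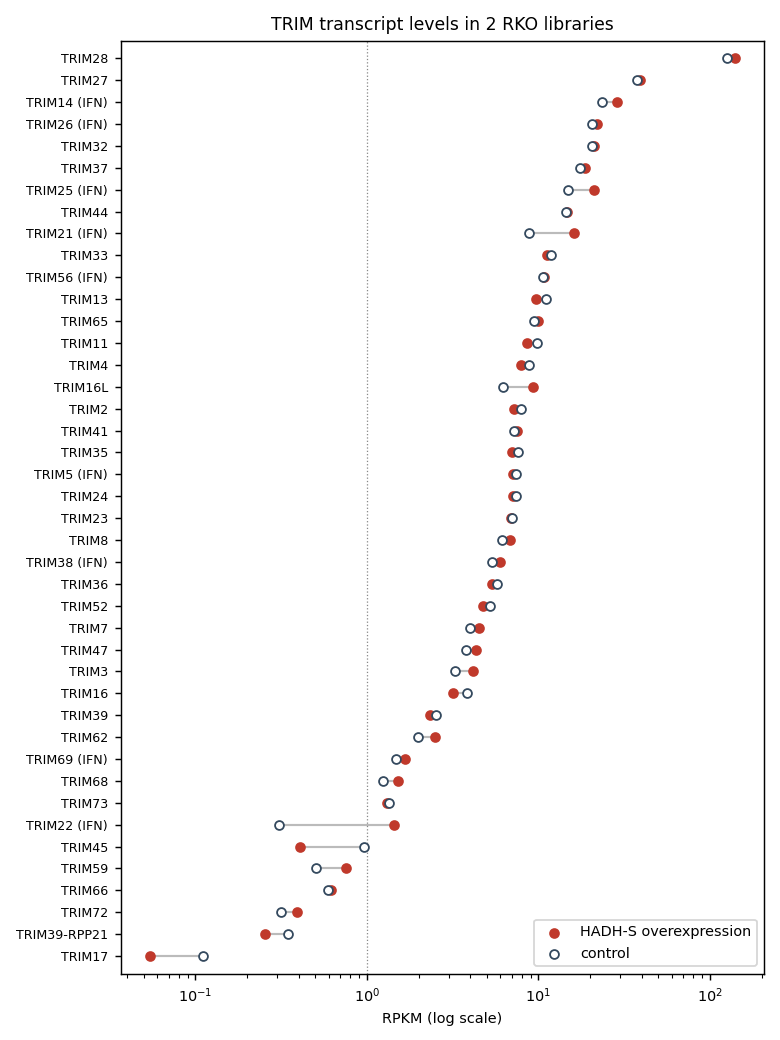
RPKM of the 42 members with reads in both libraries (horizontal axis, log scale), with filled points for HADH-S cells and open points for control cells, ordered by their mean. Members marked IFN are on the interferon-induced list, and the dotted line marks 1 RPKM. The widest gaps above that line are those of TRIM21, TRIM16L and TRIM25, while TRIM22 and TRIM45 cross or lie under it.

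The order of members by level was close between the libraries. TRIM28, TRIM27, TRIM14, TRIM26 and TRIM32 stood 1st to 5th in both. TRIM25 stood 6th in HADH-S cells and 7th in control cells. TRIM16L stood 14th in HADH-S cells and 22nd in control cells. TRIM28 made up 29.0% of the summed RPKM of the 47 members in HADH-S cells and 28.2% in control cells. The interferon-induced members made up 23.7% in HADH-S cells and 20.9% in control cells. All members summed to 485 RPKM in HADH-S cells, against 445 RPKM in control cells. The difference of 39.8 RPKM is net of the members that were lower in HADH-S cells. The largest increases were 15.0 for TRIM28, 7.33 for TRIM21, 6.17 for TRIM25 and 5.48 for TRIM14. TRIM28 thus had the largest increase with a small ratio, and TRIM21 the next with a larger one. The 10331 genes with a mean of at least 1 RPKM also summed higher in HADH-S cells, to 500368 RPKM, against 491903 RPKM in control cells.

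Of the 12 members below a mean of 1 RPKM, 10 had an interval that included 1, and 7 of the 12 had at most 4 reads in each library. Besides TRIM22, the exception was TRIM45, which has a filamin-type domain. It was at 0.406 RPKM in HADH-S cells, against 0.960 RPKM in control cells, from 10 reads and 23 reads, with a ratio of 0.423 and an interval of 0.180 to 0.924. Over all 13092 listed genes, 9.48% had an interval below 1 and 11.5% one above it. The other low members did not differ beyond counting error. TRIM59, TRIM66 and TRIM72 had 20, 46 and 23 reads in HADH-S cells and 13, 43 and 18 reads in control cells. The read-through row TRIM39-RPP21 had 3 reads in HADH-S cells, against 4 in control cells. TRIM31 had 0 reads in HADH-S cells, against 4 in control cells. In HADH-S cells TRIM61 had 0 reads and TRIM17 had 1, and in control cells both had 2. TRIM54, TRIM58 and TRIM75P had 1 read each in HADH-S cells, against 0 in control cells. A count of 0 allows up to 3 reads, so none of these values shows that a gene was silent.

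By position, the 7 members on chromosome 11 included TRIM21 and TRIM22, but TRIM5, TRIM3, TRIM44, TRIM66 and TRIM68 on the same chromosome had intervals that included 1. The 6 members on chromosome 6, which are TRIM38, TRIM27, TRIM31, TRIM26, TRIM39 and TRIM39-RPP21, all had intervals that included 1. Of the 6 on chromosome 17, the interval lay above 1 for TRIM25 and TRIM16L and included 1 for TRIM16, TRIM37, TRIM47 and TRIM65. Over all listed genes 11.5% had an interval above 1, and 13.8% of those with a mean of at least 1 RPKM did.

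Relatives of the family that carry other symbols were listed for 5 of 8. PML, the interferon-induced organiser of nuclear bodies that is also known as TRIM19, was at 3.84 RPKM in HADH-S cells, against 2.63 RPKM in control cells (ratio 1.46, interval 1.13 to 1.91). MID2, a microtubule-associated ligase, was at 4.79 RPKM in HADH-S cells, against 5.03 RPKM in control cells (ratio 0.953, interval 0.712 to 1.28). RNF207 had a ratio of 1.14 (interval 0.674 to 1.94). TRIML1 and TRIML2 had a mean below 1 RPKM, and the pyrin gene MEFV, MID1 and BSPRY were not listed.

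Among the receptor chains, kinases and factors of interferon signalling, IRF9 and IRF7 were higher by 1.5-fold. Whether such genes act on the TRIM members in these cells, or only change along with them, was not tested. The list reported here holds 9 genes, all measured, with a median log2 value of 0.36, 2 higher and 0 lower by 1.5-fold, against backgrounds of 1.47% and 0.436%. Of these 9 genes, 5 had an interval above 1 and 1 had an interval below it, against 13.8% and 11.6% of all genes at that level. IRF9 was at 21.5 RPKM in HADH-S cells, against 6.72 RPKM in control cells (ratio 3.19, interval 2.45 to 4.20). IRF7, itself interferon-induced, was at 4.83 RPKM in HADH-S cells, against 2.45 RPKM in control cells (ratio 1.97, interval 1.29 to 3.07). STAT2, which partners IRF9 in ISGF3, was at 8.998 RPKM in HADH-S cells, against 6.27 RPKM in control cells (ratio 1.44, interval 1.19 to 1.74). The receptor chains IFNAR1 and IFNAR2 had ratios of 0.901 (interval 0.818 to 0.992) and 0.845 (interval 0.705 to 1.01).

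Of the RIG-I and STING relays that TRIM proteins modify, 10 of 11 were listed, 2 were higher and 0 lower by 1.5-fold, against backgrounds of 1.47% and 0.436%, and the median log2 value was 0.02. The 2 were the RNA sensors themselves. RIG-I, listed under its older symbol DDX58, was at 8.07 RPKM in HADH-S cells, against 3.80 RPKM in control cells (ratio 2.13, interval 1.70 to 2.66). IFIH1, which encodes MDA5, was at 5.85 RPKM in HADH-S cells, against 2.76 RPKM in control cells (ratio 2.12, interval 1.58 to 2.87). The kinase gene IKBKE had a ratio of 1.36 (interval 0.980 to 1.902). The kinase MAP3K7 was at 14.7 RPKM in HADH-S cells, against 17.7 RPKM in control cells (ratio 0.830, interval 0.735 to 0.936). MAVS, TBK1, TRAF3, TRAF6, TAB2, CGAS and IKBKE had intervals that included 1, and STING1 was not listed.

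The list of ubiquitin-conjugating enzymes gave 0 higher and 0 lower by 1.5-fold among the 7 of 8 with at least 1 RPKM. The backgrounds were 1.47% and 0.436%, and the median log2 value of the list was -0.08. Which of these enzymes serve TRIM ligases in these cells was not tested. The 3 with the largest absolute log2 value among those 7 were UBE2W, UBE2L6 and UBE2D2. UBE2W had a ratio of 0.877 (interval 0.788 to 0.977), UBE2L6 one of 1.12 (interval 0.968 to 1.30) and UBE2D2 one of 1.12 (interval 1.01 to 1.25). Intervals above 1 were found for 13.8% and below 1 for 11.6% of all genes at that level.

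**Figure D3:**
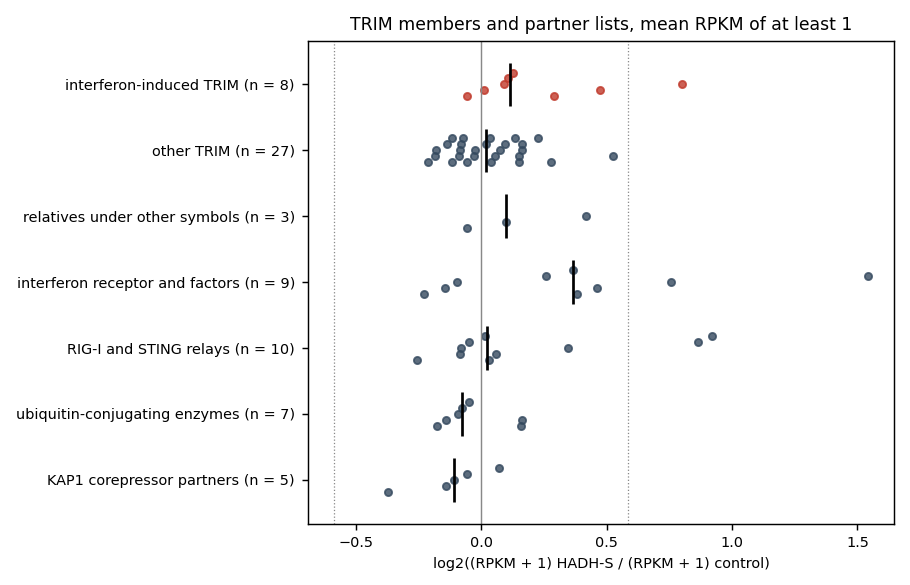
Log2 value of HADH-S over control (horizontal axis, with a pseudocount of 1) for the TRIM members and the partner lists at a mean of at least 1 RPKM, with 1 point per gene, a black bar at each median and dotted lines at 1.5-fold. TRIM21 is the TRIM point beyond the right line, and IRF9, IRF7, RIG-I and IFIH1 are the other points beyond it. Vertical spread within a row only separates the points.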

How the data were processed

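RNA was measured in 2 libraries of RKO cells, 1 overexpressing HADH-S and 1 control, grouped by their titles. The authors deposited 1 RPKM value per gene and library, per the file headers. Each row also carries a symbol, Ensembl identifiers and a transcript length. Per the submitters' processing notes, the series used GRCh38, with SAMtools 1.9, fastp 0.23.2, ChIPseeker and MACS2 1.4.2, without saying for which samples. The sources used here do not name the RNA aligner, the counter, its strand setting or the annotation version. The ChIP and input libraries were not analysed here.

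RPKM times transcript length was a whole multiple of 1 step per library for 100% of values, within 0.01 reads, and these reads gave exact conditional (Clopper-Pearson) 95% intervals of each ratio. A gene listed in 1 table only was taken to have 0 reads in the other. Without molecular identifiers, PCR copies count as separate reads, so intervals cover counting error only. Log2 values used a pseudocount of 1, and groups were counted at a mean of at least 1 RPKM. The steps were tested on simulated reads with counting error only, in which the set changes were larger than those of the members at 1 RPKM or more. Smaller changes were not simulated. Of the member identifiers 46 of 47 carried the same symbol in the reference name table (TRIM75P is TRIM75 there). Coordinates and promoter windows are from RefSeq, GRCh38.p14. Python 3.11.15 with pandas 2.3.3, NumPy 2.4.6 and SciPy 1.17.1 was used.

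The members and gene lists were chosen with earlier results of these data known. All listed interferon-induced members, and the other members at 1 RPKM or more, were named by rule. So were the 3 largest differences of each partner list among genes with a mean of at least 1 RPKM. Some genes of the partner and marker lists are not reported here and were left out of the counts. Other partners, and members below 1 RPKM, were named after their values were seen. Alternatives were pseudocounts of 0.1, 0.5 and 5, 3 rescalings, no filter, a mean of at least 5 RPKM, a wider interferon-induced list (with TRIM6, TRIM31, TRIM35, TRIM58 and TRIM62), and no read-through rows. At least 20 reads over both libraries was added after the data had been seen.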

Additional observations from a re-analysis of the deposited data

How the results depend on the processing

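No paired analysis was possible because each condition had 1 library, and for the same reason no replicate could be left out. The number of interferon-induced members higher by 1.5-fold was 1 (TRIM21) and became 2 without a filter on low values and 2 at 20 or more reads over both libraries, since both settings admit TRIM22. The number of other members higher by 1.5-fold was 0 and became 1 (TRIM16L) with a pseudocount of 0.1. The count of interferon-induced members higher by 2-fold and that of other members lower by 1.5-fold were 0 under all 11 alternatives, and no other 2-fold count was recomputed. TRIM22 was never in this 2-fold count. The settings that admitted it kept a pseudocount of 1, where its log2 value is 0.90. The smaller pseudocounts kept the filter of 1 RPKM, which leaves it out. The median log2 value of the interferon-induced members stayed between 0.08 (pseudocount of 5) and 0.16 (pseudocount of 0.1). That of the other members was 0.02 and turned to -0.003 with equal RPKM totals and to -0.03 at a mean of at least 5 RPKM. TRIM22 had a log2 value of 0.90, which was 0.28 with a pseudocount of 5 and 1.92 with 0.1, and TRIM21 stayed between 0.61 and 0.86. Of the 36 members with a value under each of 6 settings, 34 kept their sign, and TRIM44 and TRIM56, both close to 0, did not. Depth limits the members with few reads, such as TRIM22, TRIM45, TRIM69 and TRIM73.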
